A study of Mus musculus with 4 samples.

Results

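The genes described here encode the pre-B receptor and the machinery of V(D)J recombination, 10 genes of 24421 in the deposited table. They were taken by symbol, and all 10 were present: the surrogate light chain genes Igll1, Vpreb1, Vpreb2 and Vpreb3, the signalling chain and adaptor genes Cd79a, Cd79b and Blnk, the recombinase genes Rag1 and Rag2, and the terminal transferase gene Dntt. RNA was sequenced from LSK cells, which are bone marrow cells sorted as negative for lineage markers and positive for Kit and Sca-1, a mixture of stem cells and multipotent progenitors. There were 2 libraries from Zfp521-/- mice (KO) and 2 from control littermates labelled wild type (WT), with no other allele or treatment named. Strain, age and the design of the mutant allele were not given in the sources used here. Nothing says whether a library came from 1 animal or from several, so p-values measure the spread between these libraries, which may be technical in part.

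V(D)J recombination assembles antigen receptor genes in developing lymphocytes: the RAG1 and RAG2 proteins cut the DNA beside the gene segments, terminal transferase adds bases to the cut ends, and end-joining enzymes seal them. In a B cell precursor that has rearranged its heavy chain gene, the lambda5 protein (from Igll1) and a VpreB protein stand in for a light chain, and the resulting pre-B receptor signals through CD79A and CD79B and the adaptor BLNK. Most of these genes are known as products of B cell precursors, while Rag1, Rag2 and Dntt are also known from lymphoid-primed cells within the LSK fraction.

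Upstream sequence was available for 9 of the 10 members in the RefSeq table on GRCm38.p6, the build of mm10. The 250 bases before the start sites of Igll1 (chr16:16863986-16864235, minus strand), Rag1 (chr2:101649533-101649782, minus strand) and Vpreb3 (chr10:75948050-75948299, plus strand) are printed because each holds a motif of B lineage regulators and touches no annotated exon. They run 5′ to 3′ in the direction of the gene. Capitals mark the motifs: CAGGTG, an E-box of the kind bound by E proteins; CCCNNGGG, the palindrome that EBF1 is known to bind; and ATGCAAAT, the octamer of immunoglobulin promoters, each on either strand.
Igll1: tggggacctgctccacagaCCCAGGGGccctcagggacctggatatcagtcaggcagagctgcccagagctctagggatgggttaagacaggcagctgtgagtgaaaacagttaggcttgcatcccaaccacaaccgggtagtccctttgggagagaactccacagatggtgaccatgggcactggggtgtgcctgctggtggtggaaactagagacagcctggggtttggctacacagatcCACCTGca
Rag1: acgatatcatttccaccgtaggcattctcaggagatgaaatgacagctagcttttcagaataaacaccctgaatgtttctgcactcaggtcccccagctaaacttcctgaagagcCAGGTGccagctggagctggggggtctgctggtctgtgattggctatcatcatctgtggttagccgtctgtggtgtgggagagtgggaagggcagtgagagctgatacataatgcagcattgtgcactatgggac
Vpreb3: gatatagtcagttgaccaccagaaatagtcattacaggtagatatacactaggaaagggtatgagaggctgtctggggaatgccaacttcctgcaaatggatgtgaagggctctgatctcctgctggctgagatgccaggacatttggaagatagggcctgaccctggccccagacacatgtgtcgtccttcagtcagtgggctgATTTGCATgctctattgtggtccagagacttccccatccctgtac
The E-box begins 8 bases before the start site of Igll1 and 135 bases before that of Rag1. The octamer begins 45 bases before the RefSeq start site of Vpreb3. That start differs from the one in GENCODE vM21, and the printed Vpreb3 window lies inside the GENCODE span of the gene (chr10:75943057-75949657). In windows of 300 bases (250 before and 50 after the start), CAGGTG occurred in 6 of the 9 members (66.7%), namely Igll1, Vpreb1, Vpreb2, Cd79a, Blnk and Rag1, and in 20.2% of all 32851 windows of the table. The matches of Vpreb1 (88 bases before its start) and Vpreb2 (232 bases before) lie in duplicated sequence and are the same match counted in both genes. The octamer was found for Vpreb3 and Blnk and in 1.74% of all windows. CCCNNGGG was found for Igll1 and in 13.7% of all windows, and the related CAAGGGA for Cd79a and in 5.06%. The motifs were chosen with these sequences in view, and a match describes letters, not a bound site.

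Library totals lay between 17787425 and 29863594 counts. The targeted gene Zfp521 had 1561 and 1429 counts in the WT libraries against 308 and 215 in the KO libraries (log2 fold change -2.19, SE 0.23, adjusted p = 0.000491). The sorting markers were present throughout: the group means of Kit were 663 CPM (read counts scaled to TMM-adjusted library size) for WT and 700 CPM for KO, and those of Ly6a, the gene of Sca-1, 42.3 and 52.1 CPM. WT replicate 2 had 606 counts of Xist and every other library 160613 or more, so the WT pair combined a male with a female pattern. Each result on a member was also computed without that library.

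All 10 members were lower in both KO libraries than in both WT libraries, and 8 of them passed the test as lower. The exceptions were Cd79b and the sparse Vpreb2. All 10 had enough reads to be tested, and their median log2 fold change was -2.77, against 0.02 over all 14140 genes tested. The filter, at a minimum count of 10, kept Vpreb2 only through its WT libraries (42 and 61 counts, against 1 and 5 in KO). Its place among the members that fell is therefore a description. Of all genes tested, the quasi-likelihood test of edgeR called 3.01% lower and 3.77% higher (adjusted p under 0.05), and 27.6% had both KO values below both WT values. In these bulk samples, fewer cells that make a transcript and less of it per cell cannot be told apart.

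The share of genes called differed between fits, and calls from other fits are to be read against it. Counts at an unadjusted p under 0.05 are given below for lists and neighbours without such a share over all genes. They cannot be read against the shares given here, and no excess is to be taken from them. In DESeq2, 5.7% were called lower and 6% higher. With edgeR the shares were 2.89% and 3.48% with DESeq2's size factors, 2.04% and 4.7% with upper quartile factors, 5.59% and 5.98% without a filter, 3.61% and 5.25% with a stricter filter, 3.03% and 3.83% without Rn45s, and 9.29% and 9.28% with the replicate number as a term. Leaving out WT replicate 1 gave 0.642% and 1.08%, leaving out WT replicate 2 gave 0.685% and 1.49%, leaving out KO replicate 1 gave 7.88% and 6.77%, and leaving out KO replicate 2 gave 2.84% and 3.39%. Upper quartile factors gave 289 lower and 664 higher genes, against 425 and 533 with TMM factors. The 8 members passed as lower in every one of these fits.

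**Figure D1:**
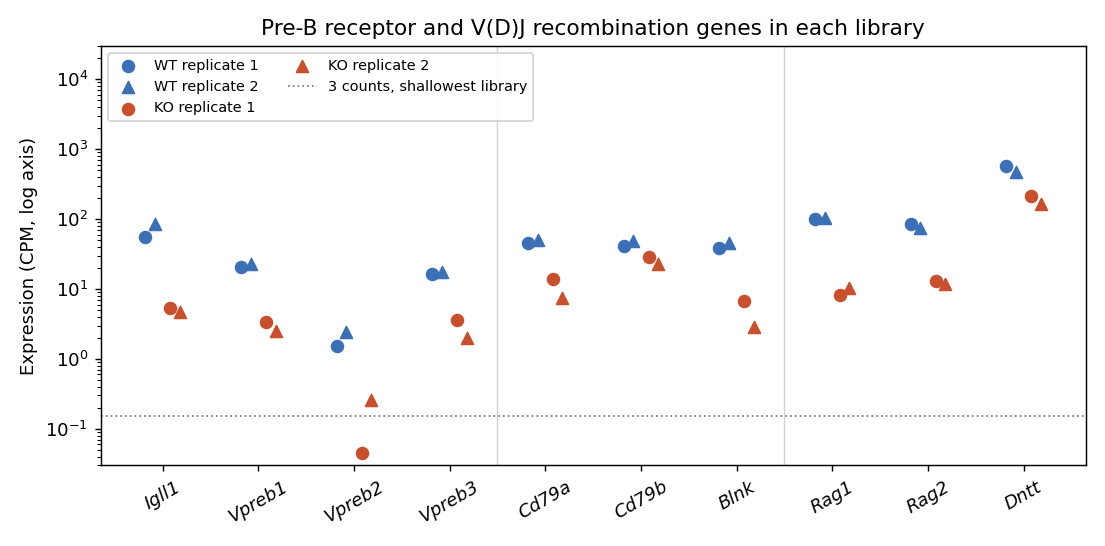
Expression of each member in each library, in CPM on a log axis; circles are replicate 1 and triangles replicate 2, WT in blue and KO in red, and the dotted line marks 3 counts in the shallowest library. In every gene both red points lie below both blue points; the gap is narrowest for Cd79b, and only Vpreb2 has a point under the dotted line.

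Igll1 encodes lambda5, the constant-region part of the surrogate light chain, and fell most among the 8 members that passed. It was at 55.03 and 84.5 CPM in the WT libraries and at 5.38 and 4.67 CPM in the KO libraries. The WT libraries differed by 1.54-fold and the groups by 13.8-fold (log2 fold change -3.79, SE 0.28, adjusted p = 3.16e-05). Vpreb1, which encodes the variable-region part, was at 20.5 and 22.6 CPM in WT against 3.39 and 2.49 CPM in KO. Its WT values were close to each other, and the groups were 7.31-fold apart (-2.87, SE 0.35, adjusted p = 0.00102). Vpreb3, whose product is known to associate with chains of the receptor, was at 16.6 and 17.7 CPM in WT against 3.57 and 1.98 CPM in KO. The KO libraries of Vpreb3 differed by 1.80-fold and the groups by 6.13-fold (-2.62, SE 0.39, adjusted p = 0.00378).

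Vpreb2, a close copy of Vpreb1, was a minor transcript. The WT libraries held 42 and 61 of its reads and the KO libraries 1 and 5. Summed over libraries, 6 KO counts against 103 WT counts, scaled to library size, put KO at 7.34% of WT, with an exact Clopper-Pearson 95% interval from 2.63% to 16.5% that covers counting error only. The test across libraries missed the threshold (-3.71, SE 1.07, adjusted p = 0.0602). Vpreb2 passed in DESeq2 (adjusted p = 0.0286), and its adjusted p ranged from 0.0112 to 0.333 over the alternatives. Of the distinct 76-base runs in annotated Vpreb2 transcripts, 19.4% also occur in Vpreb1, and 10.6% of those of Vpreb1 occur in Vpreb2. The likeness extends beyond the transcripts: at an offset of 144 bases, 153 of the 156 bases of both windows that overlap were identical (98.1%), so that sequence around the Vpreb1 start matches sequence upstream of the annotated Vpreb2 start. How shared reads were counted was not given in the sources used here, so the split between both genes is uncertain.

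Cd79a and Cd79b encode the paired chains that carry the receptor's signal into the cell. Cd79a was at 45.2 and 50.2 CPM in WT against 13.7 and 7.37 CPM in KO. The groups lay 4.52-fold apart while the KO libraries differed by 1.86-fold (log2 fold change -2.18, SE 0.30, adjusted p = 0.00256). Cd79b was at 41.5 and 47.9 CPM in WT against 29.1 and 23.1 CPM in KO. KO was again the lower group, but the 1.71-fold difference missed the threshold (-0.77, SE 0.23, adjusted p = 0.0638). Cd79b passed in DESeq2 (adjusted p = 0.0190) and without KO replicate 1 (adjusted p = 0.0176), with a range from 0.00888 to 0.299 over the alternatives.

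Blnk encodes the adaptor that links the activated kinase SYK to downstream enzymes. Its level was 38.3 and 44.9 CPM in WT against 6.78 and 2.896 CPM in KO. The KO libraries of Blnk were 2.34-fold apart, the widest spread within a group among the members that passed. The log2 fold change was -3.10 over all libraries (SE 0.37, adjusted p = 0.00102), -3.85 without KO replicate 1 and -2.62 without KO replicate 2. Blnk passed in both cases.

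Rag1 and Rag2 encode the subunits of the recombinase. Rag1 was at 99.9 and 103 CPM in WT against 8.18 and 10.3 CPM in KO. Both groups were tight and 10.99-fold apart (log2 fold change -3.46, SE 0.21, adjusted p = 1.25e-05). Rag2 was at 85.02 and 74.95 CPM in WT against 13.1 and 11.9 CPM in KO. The groups were 6.38-fold apart (-2.67, SE 0.21, adjusted p = 5.17e-05). With each library left out in turn, Rag1 stayed between -3.64 and -3.31 and Rag2 between -2.78 and -2.58.

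Dntt encodes terminal transferase, the template-free polymerase that diversifies receptor gene joints. It was at 582 and 474 CPM in WT against 216 and 162 CPM in KO, and so remained the most abundant member in both groups. The groups were 2.79-fold apart (log2 fold change -1.48, SE 0.18, adjusted p = 0.00101), the smallest change among the 8 members that passed. Leaving out WT replicate 1 gave -1.33, and leaving out WT replicate 2 gave -1.64.

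**Figure D2:**
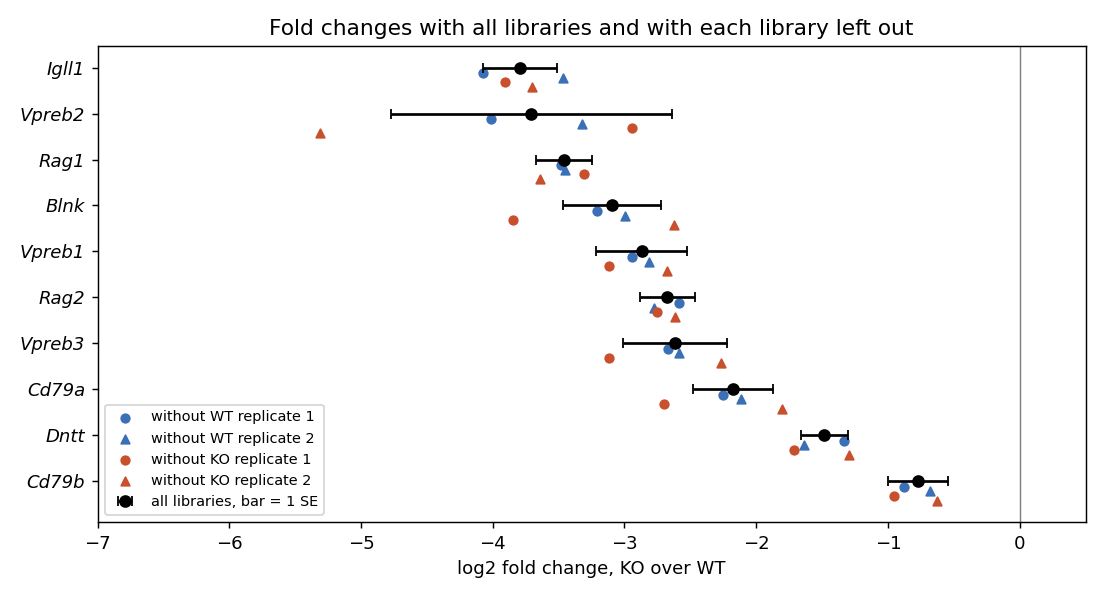
Log2 fold change of each member, KO over WT, with 1 SE (black), and with each library left out in turn (blue for a WT and red for a KO library left out; circles for replicate 1, triangles for replicate 2). Members run from Igll1 at -3.79 to Cd79b at -0.77; all values stay below 0, and Vpreb2 spreads most, from -5.31 without KO replicate 2 to -2.94 without KO replicate 1.

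As a share of the WT mean, Igll1 was at 7.71% in KO replicate 1 and 6.70% in KO replicate 2, and Rag1 at 8.08% and 10.1%. Blnk (16.3% and 6.96%), Vpreb1 (15.7% and 11.5%), Rag2 (16.4% and 14.9%) and Vpreb3 (20.9% and 11.6%) overlapped and could not be ordered beyond the spread of their KO libraries. The range of Cd79a (28.7% and 15.4%) overlapped each of theirs, and that of Blnk also overlapped those of Igll1 and Rag1. The sparse Vpreb2 was at 2.28% and 12.8%. Dntt at 40.9% and 30.6%, and Cd79b at 65.2% and 51.8%, lay above every other member in both KO libraries. KO replicate 2 was the lower KO library for 8 of 10 members, all but Rag1 and Vpreb2. WT replicate 2 was the higher WT library for 8 of 10, all but Rag2 and Dntt.

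The ratio of 2 members within a library does not depend on library scaling. Rag1 reads outnumbered Rag2 reads in WT, by 1.17-fold and 1.37-fold, and were the fewer in KO, at 0.624 and 0.860 per Rag2 read. The mean log2 ratio of Rag1 to Rag2 was 0.34 in WT and -0.45 in KO. Cd79a and Cd79b had nearly equal counts in WT, with 1.09 and 1.05 Cd79a reads per Cd79b read. In KO that ratio was 0.471 and 0.319, a mean shift of -1.47 on the log2 scale. Igll1 reads per Vpreb1 read were 2.68 and 3.74 in WT against 1.59 and 1.88 in KO, a shift of -0.88. Relative to Dntt, the shift was -2.28 for Igll1 and -1.98 for Rag1. The WT and KO ranges did not overlap for any of these 5 ratios. The ratios share genes and restate the unequal fold changes given above, so they are not separate observations. How often other gene pairs separate in this way was not computed. With 2 libraries against 2, an exact two-sided permutation test cannot go below p = 0.333, so the shifts are given without a test.

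**Figure D3:**
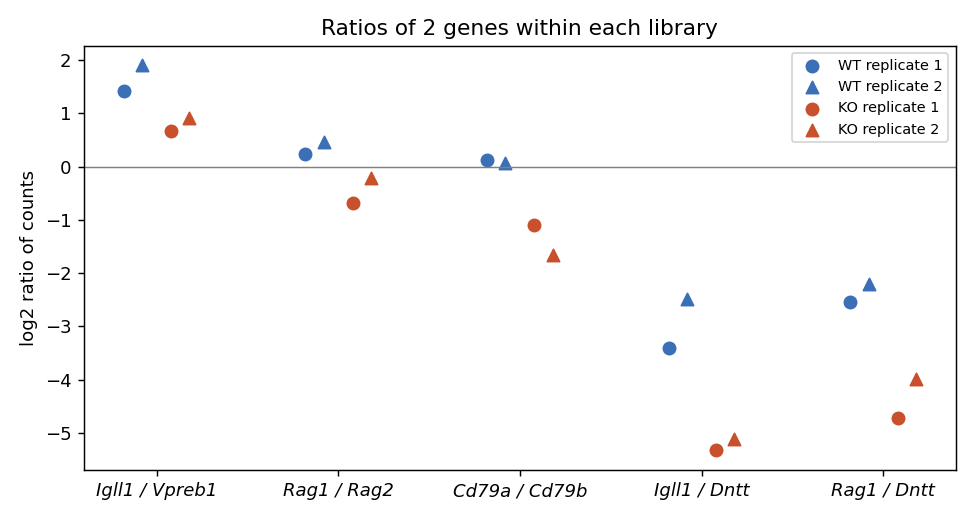
Log2 ratio of the counts of 2 members within each library; circles are replicate 1 and triangles replicate 2, WT in blue and KO in red. In each of the 5 ratios both KO points lie below both WT points; the shift is smallest for Rag1 to Rag2 (-0.79) and largest for Igll1 to Dntt (-2.28).

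Levels of different genes can be compared only per length of transcript, here CPM per kilobase of merged exons. On that scale Dntt stood at 230.4 in WT, far above the rest. Cd79a (32.7), Igll1 (32.2) and Cd79b (31.2) followed, and since Igll1 was at 25.4 in one WT library and 39.1 in the other, these 3 did not differ beyond their spread. Then came Rag2 (23.4), Vpreb3 (19.9), Vpreb1 (17.99), Rag1 (15.3), Blnk (6.94) and Vpreb2 (2.61). In KO the order was Dntt (82.4), Cd79b (18.3), Cd79a (7.23), Rag2 (3.66), Vpreb3 (3.23), Vpreb1 (2.45), Igll1 (2.32), Rag1 (1.40), Blnk (0.808) and Vpreb2 (0.197). Igll1 thus went from rank 3 in WT to rank 7 in KO by merged exons. Its KO range (2.16 to 2.49) overlapped that of Vpreb1 (2.08 to 2.83). The KO range of Vpreb3 (2.31 to 4.16) overlapped both of these and covered that of Rag2 (3.49 to 3.83). The place of Vpreb3 in the KO order is therefore uncertain. Per kilobase of coding sequence, Igll1 (111) ranked above Cd79a (72.3) in WT. In KO, Igll1 (8.02) stood on that scale above Rag2 (7.92), Vpreb1 (6.90) and Vpreb3 (6.28), with overlapping ranges. The rank of Igll1 thus depends on the length used.

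Several members lie side by side in the genome (GENCODE vM21, mm10). Rag2 (chr2:101624718-101632529, plus strand) and Rag1 (chr2:101638282-101649501, minus strand) are transcribed toward each other, 5.75 kb apart. Igll1 (chr16:16860671-16863985) and Vpreb1 (chr16:16868403-16870843) lie 4.42 kb apart on the minus strand, and Vpreb2 (chr16:17980428-17981273, plus strand) is 1110 kb from Vpreb1. Blnk (chr19:40928927-40994535, minus strand) and Dntt (chr19:41029275-41059525, plus strand) point away from each other across 34.7 kb. Cd79a (chr7:24897381-24902197, plus strand), Cd79b (chr11:106311341-106314762, minus strand) and Vpreb3 (chr10:75943057-75949657, plus strand) stand alone. Distances between genes, here and below, are taken between GENCODE spans.

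The 2 nearest tested protein-coding genes on each side of every member gave 28 neighbours that are no member. Of these, 2 were lower and 0 higher (edgeR; at an unadjusted p under 0.05, 5 lower and 3 higher; DESeq2, 3 and 0), and their median log2 fold change was 0.08. The fold change was negative for 13 of the 28. Near the recombinase genes, Traf6, a signalling ligase, was at -0.15 (adjusted p = 0.573). Smarcd2, a chromatin remodelling gene near Cd79b, was at -0.58 (adjusted p = 0.0638). The largest changes among the neighbours were upward and rested on few reads. Prr29, also near Cd79b, was at 3.54 (adjusted p = 0.0686), with 4 and 2 counts in WT against 36 and 22 in KO. Spag6l, 31.2 kb from Igll1, was at 3.53 (adjusted p = 0.126), with 5 and 0 counts in WT against 14 and 32 in KO. Around Blnk and Dntt, Zfp518a was at -0.09 and Tm9sf3 at -0.15. One neighbour that fell was Chchd10, a mitochondrial protein gene 5.31 kb from Vpreb3, at -1.91 (adjusted p = 0.0128; 0.0708 without WT replicate 2, the highest over the alternatives), and at -2.62 without KO replicate 1. The other was Api5, 7187 kb from Rag2, at -0.64 (adjusted p = 0.0254), a call lost when WT replicate 1 (adjusted p = 0.224, the highest over the alternatives) or WT replicate 2 (0.137) was left out.

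**Figure D4:**
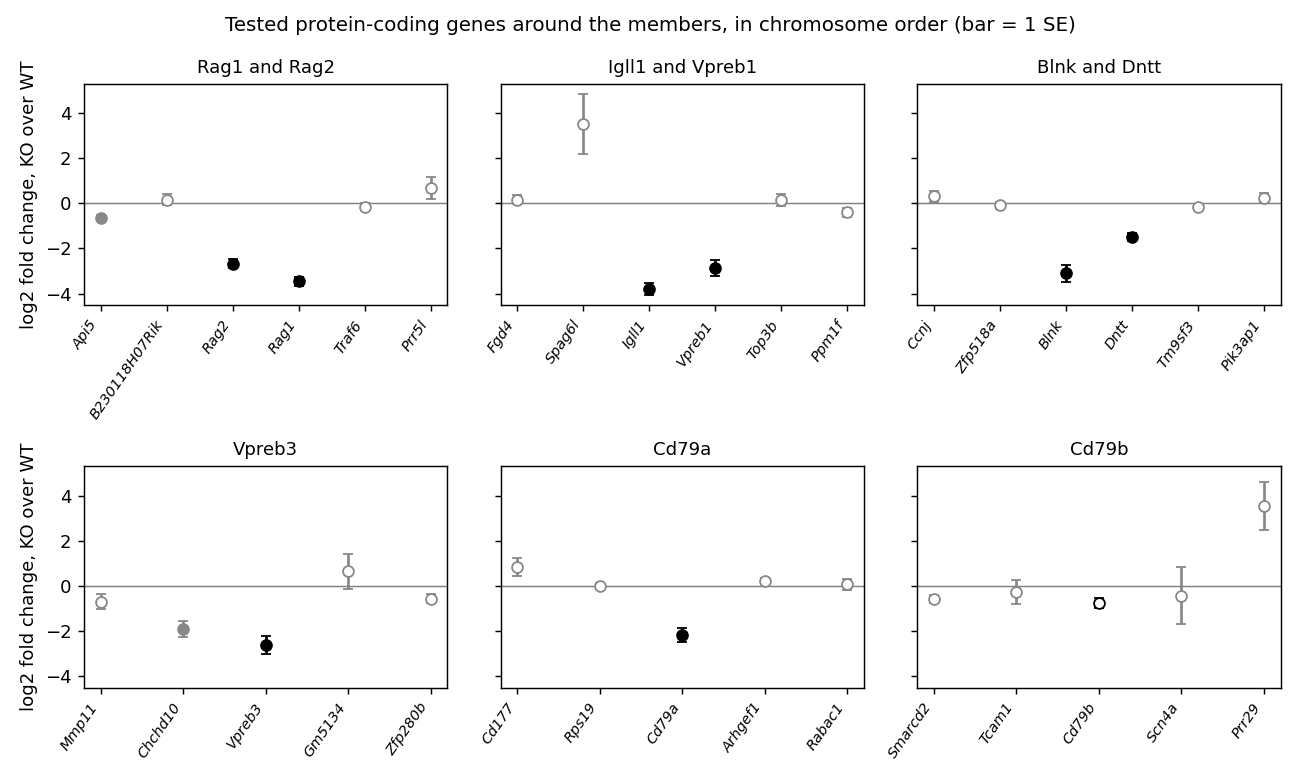
Log2 fold change, KO over WT, with 1 SE, of members (black) and their nearest tested protein-coding genes (grey) in chromosome order, for all members but Vpreb2; filled points passed the test and open points did not. In the panels of Rag1 and Rag2, of Igll1 and Vpreb1 and of Blnk and Dntt the members sit below the genes on either side, and Chchd10 lies low beside Vpreb3.

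A few genes share exonic bases with members, and the strand setting of the counting was not given in the sources used here. B230118H07Rik covers 6.07% of the exonic bases of Rag2 on the opposite strand and 1.21% of those of Rag1 on the same strand, and Top3b, a topoisomerase gene, covers 9.01% of those of Vpreb1 on the opposite strand. Reads in those stretches cannot be assigned with certainty. B230118H07Rik was at 0.16 (adjusted p = 0.730), turning to -0.035 without WT replicate 2. Top3b was at 0.14 (adjusted p = 0.774), turning to -0.12 without WT replicate 1 and -0.21 without KO replicate 1.

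Other genes of the same pathways were compared from lists. Of 15 end-joining and accessory factors of V(D)J recombination, 2 were lower and 0 higher (edgeR; at an unadjusted p under 0.05, 4 lower and 2 higher; DESeq2, 2 and 0), with a median log2 fold change of -0.07. The lower genes were H2afx (-1.29, adjusted p = 0.0153), a histone variant marked at DNA breaks, and Hmgb2 (-0.86, adjusted p = 0.00606), a DNA-bending protein that aids RAG binding. H2afx was at 368 and 345 CPM in WT against 195 and 95.5 CPM in KO, a 2.04-fold spread within KO, and its log2 fold change was -1.91 without KO replicate 1 and -0.88 without KO replicate 2. Hmgb2 was at 682 and 685 CPM in WT against 405 and 347 CPM in KO. Among the joining enzymes, Prkdc, the DNA-dependent kinase, was at 0.16, Lig4, the ligase, at -0.11 and the Ku subunits Xrcc5 and Xrcc6 at -0.55 and -0.32, none past the threshold. Nbn, a DNA break sensor, was at -0.72 (adjusted p = 0.108). Xrcc5 (adjusted p = 0.101) and Nbn were the genes lower at an unadjusted p under 0.05 beside H2afx and Hmgb2. Dclre1c, which encodes the hairpin-opening nuclease Artemis, was at 57.2 and 52.9 CPM in WT against 69.99 and 92.8 CPM in KO (0.56, adjusted p = 0.0981). Dclre1c passed as higher without KO replicate 1 (adjusted p = 0.0150), with a range up to 0.395 over the alternatives.

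Among 21 signalling partners of the pre-B receptor, 0 were lower and 0 higher (edgeR; at an unadjusted p under 0.05, 0 lower and 2 higher; DESeq2, 0 and 1), with a median of -0.07. The kinase genes Syk (-0.07), Btk (-0.20), Lyn (0.32) and Blk (-0.10) did not pass. Plcg2, a phospholipase activated through BLNK, was at 174 and 175 CPM in WT against 256 and 235 CPM in KO (0.49, adjusted p = 0.0652), Vav1, an exchange factor, at 0.44 (adjusted p = 0.111) and Tec, a kinase gene, at 0.38 (adjusted p = 0.261). Plcg2 passed as higher in DESeq2 (adjusted p = 0.0315) and without KO replicate 2 (0.0463), with a range from 0.00708 to 0.388 over the alternatives.

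Of 14 transcription regulators of these genes, 3 were lower and 0 higher (edgeR; at an unadjusted p under 0.05, 8 lower and 1 higher; DESeq2, 4 and 0), with a median of -0.48. Ebf1, which directs early B cell genes, was at 65.2 and 96.2 CPM in WT against 16.6 and 7.82 CPM in KO (-2.72, adjusted p = 0.00110; -3.37 without KO replicate 1). Lef1, a factor of lymphoid progenitors, was at 31.03 and 26.2 CPM in WT against 4.61 and 4.93 CPM in KO (-2.58, adjusted p = 0.000868). Pax5, which commits cells to the B lineage, was at 19.3 and 22.6 CPM in WT against 7.33 and 2.74 CPM in KO (-2.05, adjusted p = 0.0181), a call lost when WT replicate 2 was left out (adjusted p = 0.0877, the highest over the alternatives). Without KO replicate 1, Pax5 was at -2.94. Tcf3, the gene of the E2A proteins, was at -0.51, Foxo1, a known activator of the Rag genes, at -0.48 and Ikzf1, the gene of Ikaros, at -0.47, none past the threshold. Without KO replicate 1, 7 of the 14 were lower.

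Of 12 paralogs and T lineage counterparts of the members, 8 had enough reads to be tested, and 0 were lower and 0 higher (edgeR; at an unadjusted p under 0.05, 0 lower and 1 higher; DESeq2, 0 and 1). Lcp2, an adaptor related to Blnk, was at -0.01. Clnk, another relative, was at 1.03 (adjusted p = 0.0642) and passed as higher in DESeq2 (0.0214), with a range from 0.00646 to 0.377 over the alternatives. The polymerase genes Poll and Polm, relatives of Dntt, were at -0.67 and 0.07, and Cd3d, a chain of the T cell receptor complex, at 1.51 (adjusted p = 0.413). Ptcra, the T lineage counterpart of the surrogate light chain, had 9 and 6 counts in WT against 5 and 12 in KO.

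**Figure D5:**
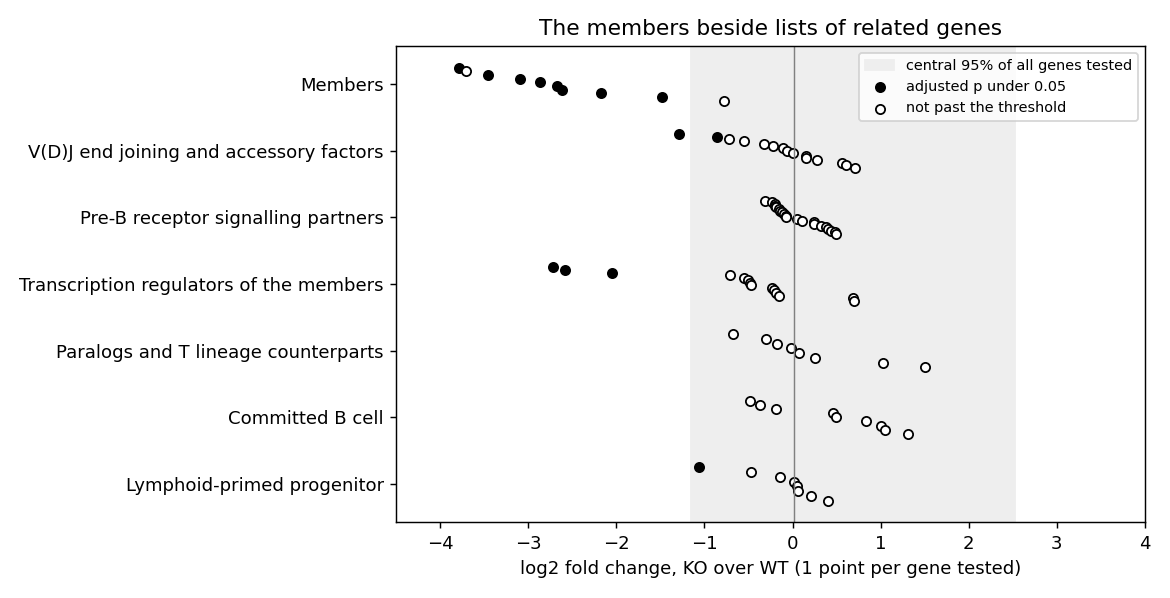
Log2 fold change, KO over WT, of each tested gene among the members and in 4 lists of related genes, the committed B cell markers and the lymphoid-primed markers; filled points passed the test, open points did not, and the grey band holds the central 95% of all genes tested, from -1.15 to 2.52. All members but Cd79b lie left of the band, along with Ebf1, Lef1, Pax5 and H2afx, while the other genes plotted lie inside it.

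Markers of other cell types were measured beside the members. Of 9 committed B cell markers, 0 were lower and 0 higher (edgeR; at an unadjusted p under 0.05, 0 lower and 2 higher; DESeq2, 0 and 0). Their summed level was 692 and 973 CPM in WT against 826 and 637 CPM in KO, most of it Cd24a, and none of the 9 was at 0 in all libraries. Ms4a1, the gene of CD20, averaged 3.502 ± 0.228 CPM in WT against 4.83 ± 1.21 CPM in KO (SD, n = 2), and Cr2, a complement receptor gene, at 6.66 ± 2.66 and 16.6 ± 10.5 CPM (SD, n = 2), neither past the threshold. Cr2 passed as higher in edgeR without a filter (adjusted p = 0.00718) and with the replicate number as a term (0.00615). Its log2 fold change was 1.31 over all libraries, 1.84 without KO replicate 1 and 0.45 without KO replicate 2. Cd37, a tetraspanin gene, was at -0.37 (adjusted p = 0.286) and passed as lower without KO replicate 1 (0.00760, range up to 0.833), and Fcer2a, an IgE receptor gene, was at 1.05 (adjusted p = 0.190). No rows were found under the symbols Ighm, Ighd and Igkc, so these genes could not be analysed here. Of 8 markers of lymphoid-primed progenitors, 1 was lower and 0 higher (edgeR; at an unadjusted p under 0.05, 2 lower and 1 higher; DESeq2, 1 and 0), with summed levels of 1466 and 1474 CPM in WT against 1615 and 1478 CPM in KO. Il7r, an interleukin receptor chain, was at -1.06 (adjusted p = 0.0424) and missed the threshold with upper quartile factors (0.0558) and without WT replicate 2 (-0.62, adjusted p = 0.361, the highest over the alternatives). Flt3, a cytokine receptor gene, was at 0.40 (adjusted p = 0.104) and Cd27 at -0.48 (adjusted p = 0.104), and both passed without KO replicate 1 (0.0396 and 0.0117, with ranges up to 0.537 and 0.510).

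Plasmacytoid dendritic cells are also known to carry Rag and Dntt transcripts. Of 7 tested markers of that type, 0 were lower and 0 higher (edgeR; at an unadjusted p under 0.05, 0 lower and 1 higher; DESeq2, 0 and 1), with summed levels of 558 and 532 CPM in WT against 504 and 447 CPM in KO. Siglech had 44 and 3 counts in WT against 202 and 62 in KO, and Klk1 was at 0 in all libraries. The log2 fold change of Siglech was 2.83 (adjusted p = 0.0856). It ranged from 1.87 to 5.60 with each library left out, and passed as higher in DESeq2 (0.0199), without WT replicate 1 (0.0134) and without KO replicate 2 (0.00717), with a range up to 0.294 over the alternatives. Without KO replicate 1, 2 of the 7 were lower. Bst2 was at -0.82 and Tcf4 at -0.22, neither past the threshold. Of 5 tested T cell markers, 0 passed (edgeR; 0 also at an unadjusted p under 0.05 and in DESeq2), and the sum was 37.4 and 32.9 CPM in WT against 32.6 CPM in each KO library, with Cd8a at 1.03 and Bcl11b at -0.52. Of 8 LSK markers, Cd34 was lower (-0.61, adjusted p = 0.0408), and it missed the threshold with upper quartile factors (0.0648) and without WT replicate 1 (0.231, the highest over the alternatives), WT replicate 2 (0.174) or KO replicate 2 (0.0933). Cd48 was at -0.60 (adjusted p = 0.106) and passed as lower without KO replicate 1 (0.0445, range up to 0.749). The part of cell makeup in the members' fall was not tested.

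The genes most like the members were sought by Euclidean distance over the 4 libraries between centred log2 CPM profiles, among 11433 protein-coding genes whose mean was 2 CPM or more. The 8 nearest to the members' mean profile were Cplx2 (distance 0.230), Tpmt (0.275), Zfp521 itself (0.358), Alpl (0.382), Lef1 (0.408), Myl10 (0.445), Fam222a (0.498) and Gprin3 (0.504). They were chosen for this likeness, so their fall is a description. Cplx2, which encodes a regulator of vesicle fusion, was at 25.97 and 31.8 CPM in WT against 6.29 and 4.06 CPM in KO. Among the members themselves, Vpreb1 (0.268), Rag2 (0.303) and Vpreb3 (0.329) lay closest to the mean profile, and Igll1 (1.22) and Cd79b (1.75) farthest.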

How the data were processed

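Whole-number read counts per gene symbol were deposited by the authors in 1 table. The submitters' processing notes name build mm10 and HTSeq 0.8.0, TopHat2 2.1.1, Picard 2.9.4 and SAMtools 1.5; the annotation, strand setting and handling of shared reads were not given in the sources used here. Groups and replicate numbers came from the labels. The main test was edgeR's quasi-likelihood test (edgeR 4.0.16, R 4.3.3) of KO against WT on these counts, with filterByExpr (minimum count 10, total 15), TMM factors, Benjamini-Hochberg adjustment over all genes tested and a threshold of 0.05. The SE is the absolute log2 fold change over the root of F. The script was tested on simulated data. A floor of 3 counts is 0.108 to 0.152 CPM.

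The members and lists were chosen with earlier results of these data known. Some list genes are not reported here, and the counts of their lists leave them out. Named genes were drawn from the members, their neighbours, the 8 nearest profiles (log2 of CPM plus 0.25) and, in each list, genes past the threshold and the 3 with the smallest p; other list genes were named after their values were seen. Alternatives were DESeq2 1.42.0, other scaling factors and filters (the stricter one asks for 50 counts in 2 libraries), each library left out, the replicate number as a term, and Rn45s left out. Where 1 library remained in a group, it was assumed to vary like the other group.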

Additional observations from a re-analysis of the deposited data

How the results depend on the processing

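The 10 members kept their direction in all 11 alternative fits, except that Vpreb2 had too few counts for the stricter filter and has no value there. Members called lower numbered 10 in DESeq2, without a filter and with the replicate block, 9 without KO replicate 1, and 8 in the other fits. Vpreb2 passed in DESeq2 (-3.76), without a filter (-3.72) and with the replicate block (-3.88). Its reads came almost only from WT, so its place in these counts is a description. Of all genes tested, 5.7% were called lower in DESeq2, 5.59% without a filter and 9.29% with the replicate block. Cd79b passed in DESeq2 (-0.79), without a filter (-0.79) and with the replicate block (-0.78), and ranged from -0.96 to -0.62 with each library left out. All genes called numbered 958, and 1674 in DESeq2, 2043 without a filter, 2626 with the replicate block and 255 to 2158 with each library left out (255 without WT replicate 1, 321 without WT replicate 2, 2158 without KO replicate 1).

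Replicate numbers are shared only as numbers: deviations of same-numbered libraries correlated at 0.076 across genes, which are not independent replicates, and the labels do not tie them to an animal, litter or day.

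End-joining factors called lower numbered 4 without a filter and with the replicate block, and 1 was higher in both and without KO replicate 1 (0 to 1 with each library left out). Signalling partners called higher numbered 1 with upper quartile factors, in DESeq2, without a filter and with the stricter one, 2 with the replicate block, and 0 to 1 with each library left out. Regulators called lower numbered 6 without a filter, 8 with the replicate block and 2 to 7 with each library left out; 1 was higher without a filter and with the replicate block, and 0 to 1 with each library left out. Of the paralogs, 1 was higher with upper quartile factors, in DESeq2, without a filter and with the replicate block (0 to 1 with each library left out). B230118H07Rik ranged from -0.035 to 0.36 and Top3b from -0.21 to 0.44 with each library left out, Top3b at -0.12 without WT replicate 1. The cause of these changes was not tested.

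Per kilobase of coding sequence, shorter than merged exons by construction, WT levels were 332 (Dntt), 111 (Igll1), 72.3 (Cd79a), 51.7 (Cd79b), 50.6 (Vpreb1), 50.6 (Rag2), 38.7 (Vpreb3), 32.5 (Rag1), 30.3 (Blnk) and 4.65 (Vpreb2).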

Other observations

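Of the 8 genes with a profile closest to the members, Cplx2, Zfp521 and Lef1 passed the test with each library left out. Tpmt, Alpl, Myl10, Fam222a and Gprin3, with mean WT levels of 4.29 to 6.89 CPM, did not pass when either WT library was left out, and neither did Myl10 and Gprin3 without KO replicate 2. Without KO replicate 1, Alpl moved from -3.10 to -3.75 and Gprin3 from -2.35 to -2.94. All 8 were chosen in these same libraries for their likeness to the members. Passing a test here is therefore a description and no added evidence of their fall. Beyond Chchd10 on the same side of Vpreb3, Mmp11, a matrix metalloproteinase gene, was at a log2 fold change of -0.71 (edgeR, adjusted p = 0.214).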
